A study of Mus musculus with 13 samples.

Results

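LSD1 (encoded by Kdm1a) was mapped by chromatin immunoprecipitation with sequencing (ChIP-seq) in Ba/F3 cells, a mouse pro-B cell line that needs interleukin 3 (IL3), and its regions after a short IL3 pulse were compared with those of cells still deprived of it. The comparison rests on the 4 LSD1 libraries of a series of 13 samples, chosen by their antibody and condition, and their replicate lists held 34842 of the 62686 regions in all 12 replicate lists of the series. The same series mapped STAT5A and HDAC3 in the same conditions, and those lists are used here only as positions to set LSD1 against. All cells were kept in medium with 1 ng/mL IL3, then deprived of IL3 for 6 h. The group without IL3 was cross-linked at that point, and the group with IL3 first received 10 ng/mL IL3 for 30 min. Each group had 2 biological replicates, cross-linked with formaldehyde and precipitated with the antibody Abcam ab17721. The cells are an established line in culture, and an IL3 pulse after starvation is not steady growth.

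LSD1 removes methyl groups from lysine 4 of histone H3 as a subunit of the CoREST complex, in which the histone deacetylases HDAC1 and HDAC2 also sit. It has no sequence preference that would by itself place it, and in blood cells it is brought to DNA by factors such as GFI1 and GFI1B, which read the core AATC. IL3 acts through its receptor and JAK2 to phosphorylate STAT5, which then enters the nucleus and binds sites of the form TTCNNNGAA at genes such as Cish, Pim1 and Socs3.

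Sequence was at hand for promoter windows only. The 6 pieces below are picked examples of LSD1 regions at promoters, and they do not stand for their classes. Each is the part of a RefSeq promoter window (GRCm38.p6, that is mm10, from 250 bases before to 50 after a gene start) that an LSD1 region covered, written 5′ to 3′ on the gene's strand. Capitals mark GATAA (the core read by GATA factors), AATCA (which holds the GFI core), TTCNNNGAA (the STAT5 form) and the E-box CAGCTG, on either strand, and such words may share letters. The first 3 were in all 4 LSD1 lists, the next 2 in both lists with IL3 and neither without, and the last in both lists without IL3 and neither with. Other pieces in all 4 lists, at Pigv, Xpo1 and Hjurp, held none of these words. A further piece of the second kind, at Celf6, held AATCA and CAGCTG.
Tigar, chr6:127109668-127109802, minus strand: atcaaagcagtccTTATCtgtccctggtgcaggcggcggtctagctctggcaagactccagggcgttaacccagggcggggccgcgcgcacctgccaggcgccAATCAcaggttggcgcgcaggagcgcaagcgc
Milr1, chr11:106751073-106751275, plus strand: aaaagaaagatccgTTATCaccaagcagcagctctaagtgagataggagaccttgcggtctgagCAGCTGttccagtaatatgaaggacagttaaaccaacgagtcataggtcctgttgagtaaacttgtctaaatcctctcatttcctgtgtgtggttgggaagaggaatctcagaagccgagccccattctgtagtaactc
Ankrd40, chr11:94327853-94328050, plus strand: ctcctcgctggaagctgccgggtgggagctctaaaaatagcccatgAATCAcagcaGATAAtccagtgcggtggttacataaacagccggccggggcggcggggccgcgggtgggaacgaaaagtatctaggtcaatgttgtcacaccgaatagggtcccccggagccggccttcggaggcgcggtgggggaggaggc
Jak2, chr19:29251591-29251787, plus strand: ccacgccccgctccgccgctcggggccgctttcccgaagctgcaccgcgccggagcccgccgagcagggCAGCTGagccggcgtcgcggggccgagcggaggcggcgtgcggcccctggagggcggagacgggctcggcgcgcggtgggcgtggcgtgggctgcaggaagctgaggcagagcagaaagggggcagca
Asxl2, chr12:3426658-3426870, plus strand: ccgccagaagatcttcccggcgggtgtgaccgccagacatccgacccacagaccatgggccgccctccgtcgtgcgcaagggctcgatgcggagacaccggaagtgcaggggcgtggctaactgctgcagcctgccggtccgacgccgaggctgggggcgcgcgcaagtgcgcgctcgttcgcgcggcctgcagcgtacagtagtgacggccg
Sipa1, chr19:5663658-5663799, minus strand: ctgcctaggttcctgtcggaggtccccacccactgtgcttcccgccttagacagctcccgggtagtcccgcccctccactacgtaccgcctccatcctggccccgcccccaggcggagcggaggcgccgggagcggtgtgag

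The Tigar piece, from the gene of a fructose bisphosphatase that restrains glycolysis, held 1 GATAA and 1 AATCA, and the LSD1 region over it ranked 14 and 5 without IL3 and 16 and 17 with IL3 (rank 1 is the highest score in a list). The Ankrd40 piece carried AATCA and GATAA a few bases apart. The Jak2 piece, from the promoter of the kinase that the IL3 receptor uses, held a CAGCTG and none of the other words, overlapped STAT5A in both conditions and HDAC3 without IL3, and LSD1 was listed there at ranks 2000 and 527 with IL3 and in neither list without. Among all 21263 windows of coding genes, 22.5% held GATAA, 34.6% AATCA, 7.69% TTCNNNGAA, 15.6% CAGCTG and 72.4% GGAAG (the core of ETS factors). In the windows met by an LSD1 region, GATAA stood in 10.3% and 13.6% of windows for the lists without IL3 and in 12.4% and 12.1% for those with IL3. AATCA stood in 17.0% and 26% against 22.3% and 22.4%, and TTCNNNGAA in 3.09% and 5.72% against 4.47% and 5.54%. In full lists all of these were below the shares over all windows. Among windows met by the 1005 highest regions, GATAA stood in 10.3% and 34.4% without and 26% and 18.7% with IL3, on both sides of the share over all windows. GATAA and AATCA stood in 17.8% and 15.1% of the 73 windows met in all 4 lists. For the 232 windows met in both lists with IL3 and neither without, the shares were 12.5% and 18.1%. For the 13 windows of the reverse kind they were 0% and 23.1%. In full lists the median G and C content of LSD1 windows was higher, 63.3% to 68.5% against 56.3%, and its part in these shares was not tested. Shares of the first 4 words overlapped between the conditions, and that of GGAAG, at 79.4% and 77.7% without and 76.9% and 77.4% with IL3, did not (difference −1.43 points, two-sided exact permutation p 0.33).

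The libraries differed more in depth than by condition, and this touches every comparison that follows. Without IL3 the lists held 1007 and 15786 regions, and with IL3 6479 and 11570. Every score was a whole number of steps of a size fixed within its list. Taking a step as a read, which no source used here states, the libraries had relative depths of 1, 4.96, 6.11 and 5.67, in the same order. Replicate 1 without IL3 was thus both the shortest and the shallowest. The mean number was 9021.5 ± 3599.9 with and 8394.0 ± 10449.6 without IL3 (SD, n = 2 each), and the difference of mean log2 numbers, 1.12 (two-sided exact permutation p 1), became −0.867 once the shallow list was left out. With 2 lists against 2, no exact permutation test can go below p = 0.33. Over all 54 tests between the conditions, 16 reached that floor and the smallest Benjamini-Hochberg adjusted p was 1, so no difference below passed a threshold, and the values are given as measured. Further comparisons were therefore made both on full lists and on the 1005 highest-scoring regions of each list, the length of the shortest list on assembled chromosomes (below, at equal length or rank-matched). Equal length is not equal depth: at rank 1005 the scores were 4 and 23 steps without and 13 and 19 with IL3. Region width also differed, at 125 and 183 bp without and 149 and 197 bp with IL3. Its part in the overlaps at equal length was not tested.

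Some blood cell genes known as partners or targets of LSD1 had a region in all 4 lists, and most did not. They were 6 of 32 haematopoietic transcription factor genes, 3 of 19 LSD1 and CoREST complex genes and 1 of 20 erythroid and megakaryocyte genes, beside 2.86% of all coding genes. The recruiter gene Gfi1 had one in 2 of the 4 lists. Near Gfi1b, which encodes a recruiter of LSD1 and is itself repressed by it, the best region within 10 kb of a gene end ranked 69 and 37 without IL3 and 173 and 193 with IL3. Near Cebpe, a regulator of granulocyte maturation, the ranks were 25 and 22 without and 29 and 19 with IL3. Near Lyl1, a helix-loop-helix factor of early blood cells, they were 202 and 96 without and 83 and 52 with IL3. Near Itgb3, the megakaryocyte integrin, they were 135 and 135 without and 138 and 42 with IL3. In these full-list ranks the conditions did not overlap at Gfi1b or, in the other direction, at Lyl1, and they overlapped at Cebpe and Itgb3. Such separation is common: ordered among themselves, 22.6% of the 540 regions in all 4 lists had both ranks with IL3 above both without, and 21.1% below. The lists differ in length and tied scores were ordered by position, so neither a direction nor its absence is read from these ranks. A ChIP-seq list does not measure expression, so the pro-B label of the cells was not checked by it, and of 23 B lineage genes 0 and 8 (0% and 34.8%) had a region without and 1 and 2 (4.35% and 8.7%) with IL3, where all coding genes had 3.85% and 41.4% without and 22.7% and 37.6% with.

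The strongest LSD1 regions were shared by both conditions. The top region of every list, rank 1 in all 4, lay 61.1 kb from Axin2, a feedback gene of Wnt signalling (chr11:109011777-109012012). The next regions by mean rank lay near Rpp25 (8 and 4 without, 4 and 5 with IL3), near the receptor gene Gpr84 (6 and 6 without, 12 and 4 with), near Incenp (26 and 3 without, 2 and 7 with) and inside Cdk8, a kinase of the Mediator complex (2 and 23 without, 8 and 9 with). After these came regions near Asic1, Sh3glb1 and Tigar, inside Manba and near Pex2. The ranks of these 10 regions lay between 1 and 49 in every list. Apart from those at Tigar and Gpr84, they (8 of 10) were called in each of the 6 pooled lists, whatever the antibody and condition, as were 88 of the 540 regions in all 4 LSD1 lists (16.3%) and 203 of all 22555 merged regions (0.9%), and whether such regions are called with any antibody was not tested. Tigar was 214 bp from its gene start, while 9 of the 10 regions lay more than 1 kb from any start.

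Across merged regions of the 4 lists, 22555 in all, regions were sorted by the lists that held them. In both lists with IL3 and in neither without (gained) were 757, or 3.36% of all merged regions. In both lists without IL3 and in neither with (lost) were 72, or 0.319%, and 540 were in all 4 lists. The shallow replicate limits the lost and shared counts, because a region could be lost or shared only if the list of 1005 held it. Of the other combinations, the most common were replicate 2 without IL3 alone (8089), replicate 2 with IL3 alone (4042) and both number 2 lists together (3573). With every list cut to its 1005 highest scores, 2339 merged regions remained, of which 132 (5.64%) were gained and 84 (3.59%) lost. These 2 counts, from lists of equal length, are much closer than 757 and 72. Leaving out replicate 1 without IL3 gave 780 gained and 8161 lost regions, and leaving out replicate 2 of that group gave 3201 and 193. Without replicate 1 with IL3 they were 4799 and 113, and without replicate 2 with IL3 2525 and 216. Apart from the gained count without the shallow list, each of these values moved by more than 1.5 times.

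**Figure D1:**
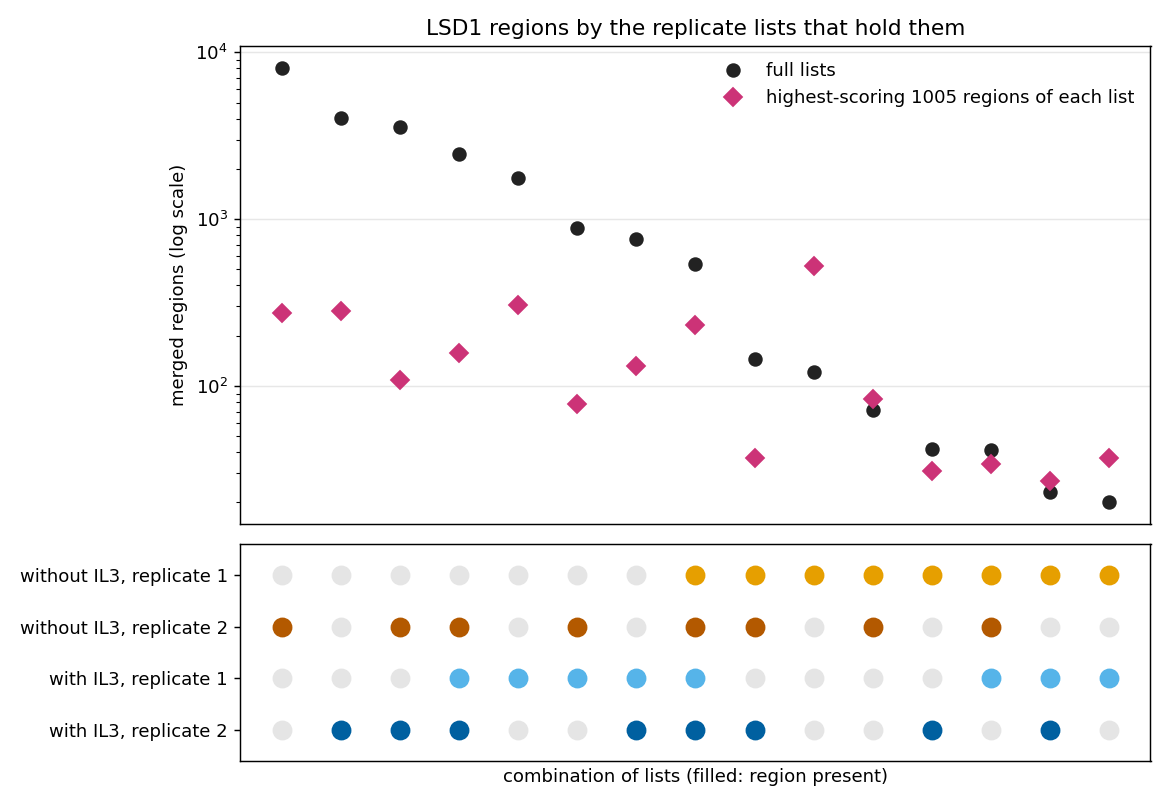
Upper part: number of merged LSD1 regions (log axis) for each combination of the 4 replicate lists, for full lists (circles) and for the 1005 highest-scoring regions of each list (diamonds); lower part: filled dots show which lists hold the regions. The 757 regions of both lists with IL3 alone exceed the 72 of both lists without IL3 alone in full lists, and the rank-matched counts are 132 and 84.

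Replicates agreed better with IL3 than without. Of the 1005 highest-scoring regions of a list, 54.3% were among the 1005 of its partner with IL3, against 38.4% and 38.3% for the pair without IL3. Between conditions the share was 49.8% to 53.1% for replicate 2 without IL3 and 31.2% to 32.1% for replicate 1. Replicate 2 without IL3 was thus closer to both lists with IL3 than to its own partner. In full lists, 88.4% and 94.8% of the top 1005 regions with IL3 were called somewhere in replicate 2 without IL3. Of the 132 rank-matched gained regions, 114 (86.4%) were in the full list of replicate 2 without IL3, and 18 were in neither full list without IL3. Of the 84 rank-matched lost regions, 50 (59.5%) and 74 (88.1%) were in the full lists with IL3, and 9 were in neither. Most LSD1 regions that entered or left the top of the lists were therefore called in the other condition at a lower rank.

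The gained regions with the highest scores lay away from gene starts. First was a region 37.3 kb from Tigit, an inhibitory receptor gene of lymphocytes (chr16:43702272-43702483), at ranks 207 and 254 with IL3. Next was a region 45.0 kb from Errfi1, whose product inhibits EGF receptors (chr4:150808668-150808864, ranks 41 and 479). After it came a region 74.9 kb from Cebpb, a bZIP factor of myeloid cells (chr2:167765215-167765469, ranks 283 and 431). A region inside Clec16a followed (ranks 432 and 370), and then 1 that lay 1954 bp from the start of Zfp36, which encodes the mRNA-destabilising protein tristetraprolin (chr7:28381084-28381280, ranks 252 and 594). The others of the first 10 were inside Rnf157 (600 and 361) and Dapk2 (480 and 792), near Mbnl1 (391 and 657), 3.59 kb from the cannabinoid receptor gene Cnr2 (249 and 868) and 2.64 kb from Tnfrsf9, which encodes the co-stimulatory receptor 4-1BB (467 and 671). None of the 10 was within 1 kb of a gene start, as was also true of the first 10 lost regions, while 1 of the first 10 in all 4 lists was. At a mean rank with IL3 of 1 to 1000, 6.67% of gained regions lay there. Of the regions in both lists with IL3 that were also called without it, 12.6% did. In the authors' pooled list without IL3, 4 of the 10 were called after all, those near Tigit, Cebpb and Zfp36 and in Rnf157, and 6 were not. Over all gained regions, 171 of 757 (22.6%) were in that pooled list and 586 were not.

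The 18 gained regions that ranked within 1005 in both lists with IL3 and stood in neither full list without IL3 included all 10 of these. The other 8, named after their values were seen, lay near Samd4, Atp5mpl, Cish, Foxb2 and Rtca and inside Glo1, Rab31 and Neb. The region near Cish, the classic STAT5 target and feedback inhibitor, lay 6217 bp from a gene end (chr9:107308891-107309112) at ranks 583 and 793. A second gained region lay 225 bp from the Cish start (chr9:107296747-107297021) at ranks 1695 and 4603. Within 10 kb of the ends of Cish there were 3 and 3 LSD1 regions without IL3 and 5 and 6 with IL3. The counts at Cish did not overlap between the conditions, but they come from full lists of unequal length. The share of all coding genes whose counts separate in this way was not measured, so no effect of IL3 is read from them.

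Gained regions of high rank coincided with STAT5A called with IL3, and this fell with rank. All 10 of the first 10 overlapped a region of the pooled STAT5A list with IL3, as did 42 of the first 50 (84.0%) and 75 of the first 100 (75%), against 355 of all 757 (46.9%, 95% Wilson interval 43.4 to 50.5). In both STAT5A replicate lists were 5, 29 and 51 of the first 10, 50 and 100. Regions in both LSD1 lists with IL3 that were also called without IL3 give the background at equal rank. At a mean rank with IL3 of 1 to 1000, STAT5A overlapped 26 of 30 gained regions (86.7%, 70.3 to 94.7) and 467 of 661 of the others (70.7%, 67.1 to 74.0). At 1001 to 2000 it overlapped 46 of 62 (74.2%, 62.1 to 83.4) and 329 of 525 (62.7%, 58.5 to 66.7). At 2001 to 3000 the shares were 51.6% and 52.3%, at 3001 to 4000 50.5% and 50%, at 4001 to 6000 38.5% and 45.7%, and at 6001 to 10000 39.2% and 35.0%. The gained share thus lay above the other among the strongest regions, with intervals that overlap, and near it further down. By STAT5A called in both its replicates, the first class held 60% against 34.5% and the second 50% against 22.9%.

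**Figure D2:**
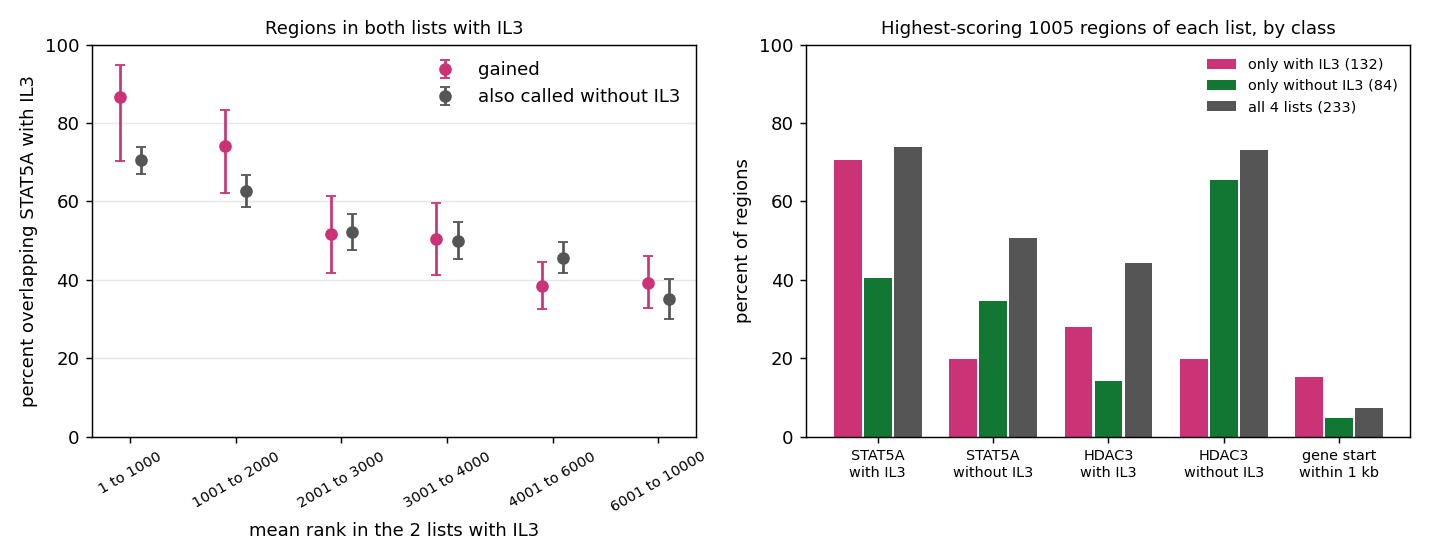
Left: percent of LSD1 regions overlapping the pooled STAT5A list with IL3, by mean rank in the 2 LSD1 lists with IL3, for gained regions and for regions also called without IL3 (bars are 95% Wilson intervals, counting error only); the gained points are at 86.7% and 74.2% in the first 2 rank classes and fall below 55% after that. Right: percent of the rank-matched gained, lost and shared regions that overlap STAT5A or HDAC3 regions of each condition or lie within 1 kb of a gene start; HDAC3 without IL3 covers 65.5% of lost and 19.7% of gained regions.

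The highest-ranked lost regions coincided with HDAC3 called without IL3. First by rank were regions inside Spns2, a sphingosine 1-phosphate transporter gene (chr11:72484642-72484867, ranks 132 and 500 without IL3), 8.39 kb from the kinase gene Sik1 (161 and 618) and 1.65 kb from the eosinophil chemokine receptor gene Ccr3 (831 and 172). Next came regions near Bmt2 (722 and 328), inside St3gal2 (360 and 712), and inside Alox5, which encodes the 5-lipoxygenase that starts leukotriene synthesis (339 and 939). Also among the first 10 were regions near Ttc27 and inside Abcg1, a cholesterol exporter gene, and Angpt1. Of these 10, 9 overlapped the pooled HDAC3 list without IL3 and none the one with IL3, and 3 overlapped STAT5A with IL3. Highly ranked regions of the other classes overlapped HDAC3 too. Either HDAC3 list met 7 of the first 10 gained and 9 of the first 10 regions in all 4 lists. Of those 7 gained regions, only the ones near Mbnl1 and inside Dapk2 met HDAC3 without IL3, and the rest met HDAC3 with IL3. HDAC3 without IL3 met 66.2% of the first 500 regions of replicate 2 without IL3. In the authors' pooled LSD1 list with IL3, 4 of the first 10 lost regions were called and 6 were not. Of all 72 lost regions, 21 (29.2%) overlapped HDAC3 without IL3 and 3 (4.17%) HDAC3 with IL3, and 18 (25.0%, 95% Wilson interval 16.4 to 36.1) overlapped STAT5A with IL3, with none in both STAT5A replicate lists. HDAC3 without IL3 overlapped 11.4% of all merged regions and 56.9% of those in all 4 lists. For HDAC3 with IL3 these shares were 4.19% and 30.2%, so the lost share of 4.17% lay at that of all merged regions. The gained regions had 50 (6.61%) with HDAC3 without IL3 and 52 (6.87%) with HDAC3 with IL3.

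The same contrast stood in lists of equal length. Of the 84 rank-matched lost regions, 55 (65.5%) overlapped HDAC3 without IL3, 12 (14.3%) HDAC3 with IL3 and 34 (40.5%, 95% Wilson interval 30.6 to 51.2) STAT5A with IL3. Of the 132 rank-matched gained regions, 26 (19.7%) overlapped HDAC3 without IL3, 37 (28.0%) HDAC3 with IL3 and 93 (70.5%, 62.2 to 77.6) STAT5A with IL3. For the 233 regions in all 4 lists cut to equal length, the shares were 73.0%, 44.2% and 73.8%. The HDAC3 overlaps rest mainly on replicate 1 of that antibody: replicates 1 and 2 of HDAC3 without IL3 held 41 and 5 of the 84 lost regions, and those with IL3 held 34 and 0 of the 132 gained. Whether LSD1 and HDAC3 libraries of a condition came from the same cultures is not given in the sources used here, and the part of that in these overlaps was not tested. The first rank-matched gained regions lay 476 bp from the start of Gtf2a1 (ranks 108 and 137 with IL3, 1202 in replicate 2 without IL3), near Rplp1 (95 and 158, 1319) and near Eif3h (166 and 100, 1219). Others of the first 10 lay inside the retinoic acid receptor gene Rara (182 and 185, 2627) and inside Runx1, a master factor of blood formation (89 and 301, 1760). Among the first lost ones were regions inside Sla, which encodes an adaptor that restrains antigen receptors (148 and 99 without, 2063 in replicate 2 with), and inside Bckdhb (207 and 107 without, 3625 in replicate 2 with).

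Counted over each list, both lists with IL3 stood above both without in STAT5A overlap only once the lists had equal length. In full lists, 42.8% and 27.1% of LSD1 regions without IL3 and 38.9% and 35.1% with IL3 overlapped STAT5A with IL3. There the groups overlapped (difference of means 2.07 points, two-sided exact permutation p 1). The difference was −5.77 when replicate 2 without IL3 was left out and 9.9 when the shallow replicate 1 without IL3 was left out. At equal length, the values were 42.8% and 56.7% without and 63.6% and 63.7% with IL3. Both lists with IL3 stood above both without, by 13.9 points on average (63.6% ± 0.0704 against 49.8% ± 9.85, SD, n = 2 each, two-sided exact permutation p 0.33). In the first 500 regions the values were 51.0% and 62.4% without and 68.6% and 71.0% with IL3, and in both cases replicate 2 without IL3 lay nearer to the lists with IL3 than replicate 1 did. Against STAT5A replicate 2 alone the rank-matched values were 29.8% and 26.8% without and 35.4% and 42.4% with IL3 (p 0.33, same test), and against replicate 1 alone 26.5% and 49.3% without and 54.4% and 49.2% with, where the groups overlapped. Against STAT5A called without IL3, the rank-matched means were 32.8% ± 7.25 with and 33.9% ± 2.53 without (p 1, same test).

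Read from the STAT5A side, 2133 STAT5A regions were in both STAT5A replicate lists with IL3. The 1005 highest LSD1 regions of each list met 5.58% and 9.75% of them without IL3 and 13.0% and 13.4% with IL3 (difference 5.51 points, two-sided exact permutation p 0.33). For the 1841 of these that were in neither STAT5A list without IL3, the values were 3.15% and 6.52% without and 10.5% and 10.3% with IL3 (difference 5.54 points, same p). In both sets the conditions did not overlap. With full LSD1 lists they did, at 5.58% and 41.5% without against 35.0% and 50.1% with IL3 for the 2133. Of the 1841, a full LSD1 list met 3.15% to 45.2%.

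In whole lists, the conditions overlapped in the share of LSD1 regions that met HDAC3 of either condition, and at equal length they did not for HDAC3 called with IL3. At equal length, either HDAC3 list met 41.4% and 61.9% of LSD1 regions without IL3 and 49.8% and 51.1% with IL3 (difference −1.19 points, two-sided exact permutation p 1). For HDAC3 called with IL3, 16.9% and 26.5% of LSD1 regions without IL3 and 27.0% and 27.4% with IL3 overlapped it, which did not overlap between the groups (p 0.33, same test). For HDAC3 called without IL3 the shares were 37.5% and 57.5% in LSD1 lists without IL3 against 41.8% and 44.7% in those with it, and here the groups overlapped. In full lists the difference for either HDAC3 list was −8.55 points (p 1, same test), and it turned to 4.08 when replicate 1 without IL3 was left out.

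**Figure D3:**
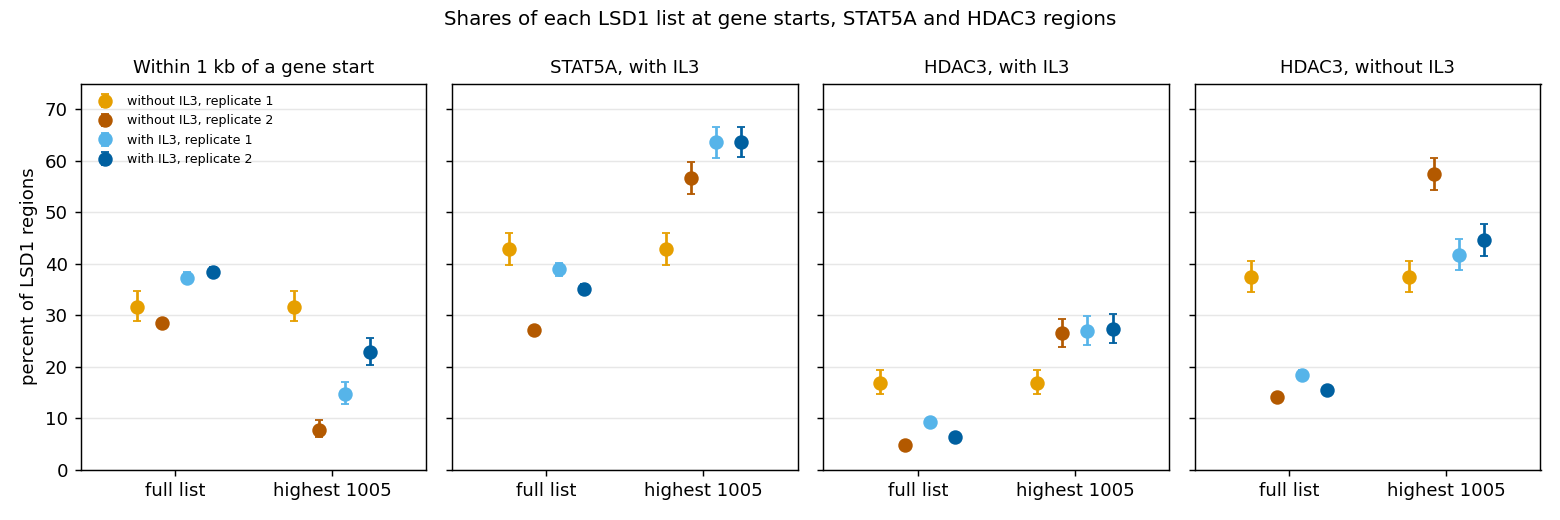
Percent of LSD1 regions of each replicate list (points, with 95% Wilson intervals for counting error) within 1 kb of a gene start or overlapping pooled STAT5A or HDAC3 regions, for the full list and its 1005 highest-scoring regions. At equal length both lists with IL3 sit at 63.6% and 63.7% for STAT5A, above 42.8% and 56.7%, while gene starts separate the conditions in full lists but overlap at equal length, where the shallow list without IL3 is at 31.7% and the other at 7.76%.

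Gene starts took a larger share of LSD1 regions with IL3 in full lists, and at equal length the direction turned on the shallow list. Within 1 kb of the start of a coding gene lay 31.7% and 28.5% of regions without IL3 and 37.3% and 38.4% with IL3 (37.9% ± 0.747 against 30.1% ± 2.32, SD, n = 2 each, two-sided exact permutation p 0.33), and the groups did not overlap. Within 1 kb of either end of a gene the means were 41.5% ± 1.21 and 33.2% ± 1.63 (p 0.33, same test). At equal length the shares at starts were 31.7% and 7.76% without and 14.7% and 22.8% with IL3, with groups that overlapped (difference −0.995 points, two-sided exact permutation p 1). Without the shallow replicate 1, the 7.76% of the remaining list without IL3 lay below both lists with IL3. At ranks 1001 to 2000 that list had 16.6% of its regions at starts, against 31.2% and 34.2% in the lists with IL3, and it lay below them in each rank class up to 10000. The order of the lists thus matters: in replicate 2 without IL3 the share of starts was 5.80% in the first 500 regions and 34.6% at ranks 8001 to 10000, and in replicate 2 with IL3 it was 16.8% and 43.3%. The strongest LSD1 regions were far from starts in these lists and the weaker ones near them. Replicate 1 without IL3 began higher, with 24.4% of its first 500 regions at starts and 38.6% of the next 500.

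Near the starts, LSD1 regions peaked over the start itself in all 4 lists. Of the regions within 1 kb of a start, 65.2% and 72.4% without IL3 and 68.3% and 72.1% with IL3 had their centre within 250 bp of it. The 200 bp just before the start held 9.75% and 11.3% of a list's regions without and 10.2% and 12.9% with IL3. The 200 bp just after it held 8.36% and 7.66% without and 12.8% and 12.3% with IL3. The conditions did not overlap in the first 200 bp downstream and did in the 200 bp upstream. These bins were counted in full lists only. At equal length they were not counted, and there the shares within 1 kb of a start overlapped. Over the whole 1 kb on either side, the share lying downstream was 53.0% and 43.3% without and 57.3% and 52.1% with IL3, which overlap. Of regions within 1 kb of a gene end, 77.1% to 78.6% lay at the 5′ bound and 2.88% to 4.33% at the 3′ bound, and for the rest the strand is not in the table used here.

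**Figure D4:**
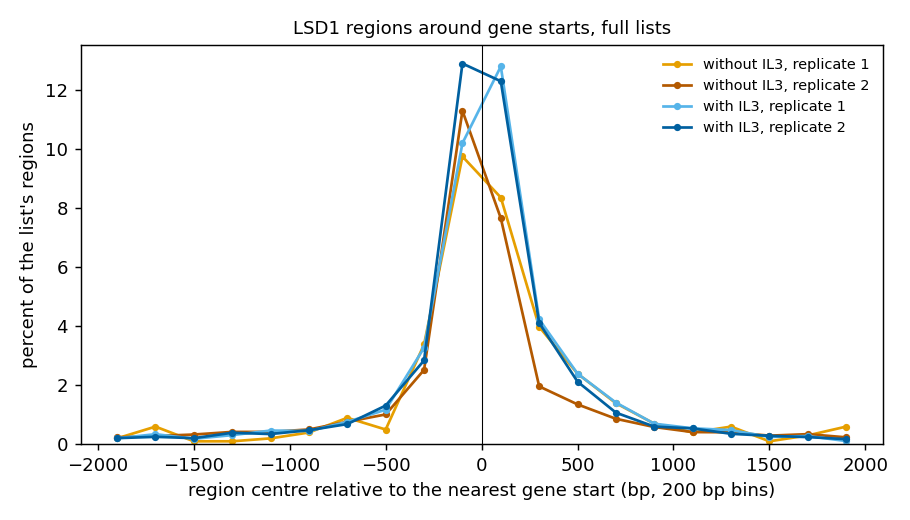
Percent of each full LSD1 list in 200 bp bins of distance from the nearest start of a coding gene (negative is upstream). All 4 lists peak in the 2 bins around the start, and in the bin just downstream the lists with IL3 reach 12.8% and 12.3% against 8.36% and 7.66% without IL3.

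Regions in all 4 lists were compared by their order among themselves, which sets aside what was called and what was not. Over these 540 regions, Spearman's rho across regions was 0.81 for the pair with IL3, 0.54 for the pair without, and 0.45 to 0.72 between conditions, as a description of lists that share their regions. Both ranks with IL3 stood above both without at 122 regions (22.6%), and below at 114 (21.1%). In replicate 1 without IL3, 186 of the 540 share 1 tied rank, 380.5, and a further tied block at 507.0 lies below it. These ties limit the order there. Among regions that ranked higher with IL3, 1 inside Cnbd2, 11.5 kb from Scand1, went from 507.0 and 444.5 without to 37.5 and 163.0 with IL3. Others were near Trdmt1 (507.0 and 171.0 without, 31 and 39.0 with), inside Prex1, a guanine nucleotide exchange factor gene for Rac (507.0 and 416.0 without, 176.0 and 205.5 with), and near Mxd1, which encodes a partner of MAX that opposes MYC (507.0 and 316.0 without, 210.0 and 99.0 with). A region inside Sae1 stood 15872 bp from the start of Bbc3, which encodes the death protein PUMA of cytokine-starved cells. It ranked 380.5 and 204.0 without and 22.0 and 29.5 with IL3. Regions inside Pced1b and Rasgrp2 and near Rpl3 and Catsperd were also among the first 10.

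Among regions that ranked lower with IL3, the first lay 127 kb from Haao, at 94.0 and 267.0 without and 489.5 and 522.5 with IL3. One 3.47 kb from Pip5k1a, a lipid kinase gene, had 146.5 and 183.0 without and 519.0 and 425.5 with IL3, and 1 near Itpr2, the gene of an IP3 receptor, had 232.5 and 80.5 without and 455.5 and 453.5 with. Regions inside M1ap and St6gal1 and near Eefsec, Papss2, Ifnar2 and Sema4f were also among the first 10. Of the 122 higher regions, 91 (74.6%, 95% Wilson interval 66.2 to 81.5) overlapped STAT5A with IL3, against 57 of the 114 lower (50%, 41.0 to 59.0) and 62.2% of the 304 others. By STAT5A replicate 2 alone the shares were 57.4% and 16.7% (42.4% of the others), and by replicate 1 alone 55.7% and 35.1% (43.8%). HDAC3 without IL3 overlapped 51.6% of the higher, 68.4% of the lower and 54.6% of the other regions. For HDAC3 with IL3 the shares were 38.5%, 28.9% and 27.3%. Within 1 kb of a gene start lay 27.0% of the higher, 7.89% of the lower and 23.7% of the other regions. At starts and for HDAC3 without IL3, the higher regions thus lay nearer the others than the lower ones did. Over the 2984 regions of the 3 deep lists, without replicate 1 of the group without IL3, 1071 were higher and 960 lower. There STAT5A overlapped 57.4% and 50.7%, HDAC3 without IL3 25.9% and 45.4%, and gene starts 36.0% and 17.4%. Regions of neither kind had 55.3%, 31.9% and 36.1%, nearer the higher than the lower regions in each case.

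**Figure D5:**
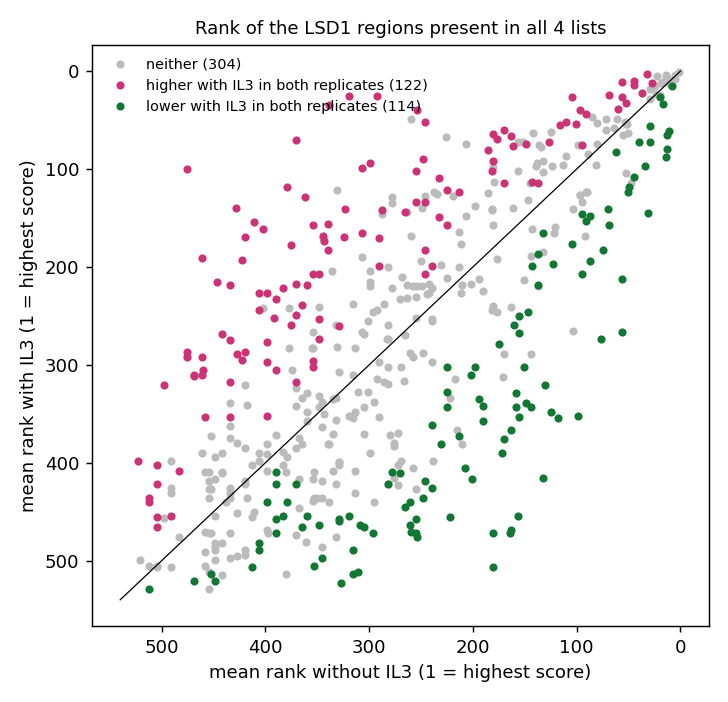
Mean rank of the 540 LSD1 regions present in all 4 lists, without IL3 (horizontal) and with IL3 (vertical), with rank 1 at the upper right; the line marks equal rank. The 122 regions whose 2 ranks with IL3 both stood above those without lie above the line and the 114 of the opposite kind below it, and the highest-ranked regions sit close to it.

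Most genes of the IL3 pathway had LSD1 nearby in the 3 deeper lists of either condition. A region within 10 kb of a gene end was found for 3.85% and 41.4% of the 21887 coding genes without IL3 and for 22.7% and 37.6% with IL3, and 625 (2.86%) had one in all 4 lists. Of 22 IL3 receptor and JAK-STAT genes, 5 and 21 had one without and 16 and 20 with IL3, and 5 had one in all 4 lists. Of 23 STAT5 target genes, the counts were 5 and 20 without and 14 and 17 with IL3, with 3 in all 4 lists, and of 30 immediate early genes 7 and 26 without and 21 and 24 with, with 6 in all 4. These counts rank as the lengths of the lists do, and they overlap between the conditions. By genes, 386 (1.76%) had a region in both lists with IL3 and neither without, and 14 (0.064%) the reverse. The former included 1 JAK-STAT gene (Jak3), 1 immediate early gene (Jun), 1 survival, 2 cell cycle, 2 SMAD pathway and 4 ribosomal protein genes, and none of the STAT5 target genes. No list held a gene of the reverse kind. The 23 B lineage genes and 25 tissue genes of other lineages, such as those of liver and retina, had 0 of either kind.

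A gained region within 10 kb was found for 804 coding genes (3.67%) and a lost one for 67 (0.306%). Of the 22 JAK-STAT genes 2 had a gained region, Jak2 and Jak3. Of the STAT5 targets 3 of 23 did, Cish, the cytokine gene Lif and Spred1, an inhibitor of RAS signalling. Of the immediate early genes 5 of 30 did: Jun, Jund, Nr4a1, Zfp36 and Dusp1, which encodes a phosphatase of MAP kinases. The Dusp1 region was 162 bp from the start at ranks 1135 and 1484 with IL3 and overlapped HDAC3 with IL3 and no STAT5A region. Nr4a1, a nuclear receptor gene, had 2 gained regions and 1 lost, and the lost one (517 and 7945 without IL3) lay inside the gene beside a gained one (1886 and 2542 with). Among 22 survival and apoptosis genes 2 had a gained region, among them Bmf, a BH3-only gene, whose region lay 3610 bp from its start at ranks 1523 and 1332 and overlapped STAT5A in both replicates. E2f2, Rb1 and Rbl2 of 24 cell cycle genes, Rpl10a, Rpl29 and Rpl3 of 87 ribosomal protein genes, and 2 of 17 SMAD pathway genes had one. Of 32 haematopoietic transcription factor genes Cebpb had a gained region and Tal1 a lost one (689 and 3306 without IL3). Of 19 LSD1 and CoREST complex genes Gse1 had a gained region and Rcor2, a CoREST subunit gene, a lost one, 1454 bp from its start at ranks 585 and 3198. Myeloid and mast cell genes had 1 of 26 (Tyrobp), and B lineage genes, erythroid genes, HDAC3 complex genes and tissue genes had 0. These counts are small, and each list holds at most 5 such genes beside a background of 3.67%.

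At other IL3 pathway genes LSD1 was listed in both conditions. Near Pim1, a survival kinase gene and STAT5 target, the best region ranked 564 in replicate 2 without IL3 and 316 and 189 with IL3. Near Osm, the oncostatin M gene, the ranks were 804 without and 490 and 560 with, and near Socs3, a feedback inhibitor of JAK kinases, 4224 without and 2454 and 321 with. Near Csf2rb2, which encodes the IL3-specific beta chain of the receptor, they were 477 without and 1869 and 2534 with. All of these were absent from the short list of replicate 1 without IL3. The lists differ in length, so no direction is read from these ranks.

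Few gained regions had another beside them. Of the 757, 32 (4.23%) had another gained region within 10 kb, against 39 of the 540 shared regions (7.22%). On chromosome X, 3 of 336 merged regions (0.893%) were gained. By position, 43.7% of gained and 26.4% of lost regions lay within 1 kb of a gene start, 21.1% of those in all 4 lists and 33.5% of all merged regions. Among the 1005 highest regions of each list these shares were 15.2% of gained, 4.76% of lost and 7.3% of shared regions. The median distance to a start was 4471 bp for gained, 9508 bp for lost and 18772 bp for regions in all 4 lists.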

How the data were processed

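LSD1 ChIP-seq regions of Ba/F3 cells were compared between conditions from the authors' deposited peak lists, 1 per replicate and 1 pooled list per group. Per the submitters' processing notes, the tools named are Trimmomatic 0.30, Bowtie2 2.1.0, Picard 1.92 and HOMER 4.8, with the build mm10; the peak caller's settings are not stated in them. The deposited score of each region was made by the authors, and its definition is not given in the sources used here, so only ranks within a list were used. Lists were limited to the 21 assembled chromosomes, and regions sharing at least 1 bp were merged. Distances came from RefSeq genes of GRCm38.p6. Its promoter table has starts for 17492 of 21887 coding genes (79.9%), with none on chromosome 18, where 848 LSD1 regions lie. Group means were compared with two-sided exact permutation tests, and p-values over all comparisons were adjusted by Benjamini-Hochberg. Wilson intervals (95%) cover counting error only. Named regions are the first 10 of each class by mean rank in the lists that hold them, and for the order of shared regions the 10 of each direction with the largest change in mean order. Genes of the fixed lists are named where their region was among the 6 best-ranked of the list or was gained or lost. Regions are named by the gene whose end is nearest or that contains them. The members and the gene lists were chosen with earlier results of these data known. The merging and classing code was run on simulated data, with all 200 gained and 200 lost regions recovered. There, each planted region was present in every list of its class, and the lists had the same length. That run checks the code only, and cannot show how reliable the classes are in lists of unequal length. Python 3.11.15, numpy 2.4.6, pandas 2.3.3, scipy 1.17.1 and matplotlib 3.10.9 were used. Added after seeing the data were gene starts alone, each HDAC3 list alone, gained regions beside others of equal rank, and motifs and pooled-list requirements for the shorter or stricter sets. Other alternatives were shorter lists, pooled lists, other overlaps and gene windows, and leaving out each replicate. The pooled lists hold the same libraries and are support only. The input library was not used here. A few named genes that the rule selects are not reported here.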

Additional observations from a re-analysis of the deposited data

How the results depend on the processing

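No difference between the conditions passed a test, since 2 lists against 2 cannot, so the alternatives concern sizes and directions only. With each list cut to the highest 1005, 500 or 250 regions, gained regions numbered 132 and 71 at the first 2 lengths and regions in all 4 lists 233 and 138, and replicates shared 59.4% and 59.6% with and 44.4% and 48% without IL3 at the last 2. The difference in regions within 1 kb of a gene end became −0.896 and −1.2 points at the first 2 lengths, and those in GATAA and AATCA −0.00349 and −0.988 at the first. Regions within the highest 1005 of both lists of a condition and absent from both full lists of the other numbered 18 gained and 9 lost. The authors' pooled lists gave 8152 gained, 7953 lost and 8933 shared regions. With a 50 kb window, 1977 genes had a region in all 4 lists and 210 only in both lists with IL3. Leaving out 1 replicate at a time gave a log2 difference in number of −0.867 to 3.11, STAT5A differences of −5.77 to 9.9 points, HDAC3 differences of −21.2 to 4.08 points, 780 to 4799 gained, 113 to 8161 lost and 563 to 2984 shared regions, and 200 to 1071 regions higher and 192 to 960 lower in order. The lowest number and the highest HDAC3 difference came from leaving out the shallow replicate 1 without IL3, and the lowest STAT5A difference from leaving out its partner. With a replicate block (sign flips of same-numbered pairs, smallest p 0.5) the difference in number was 1.12 with an exact permutation p of 1. Deviations of same-numbered lists over the shared regions correlated at 0.038. This cannot decide whether the numbers pair the libraries, because 186 of those regions were tied in replicate 1 without IL3. Pairing is not given in the sources used here. The cause of these shifts was not tested. Of the 10 named gained regions 9 stayed gained with an overlap of 50% of the narrower region and 6 when the other condition's pooled list was also required to lack them, and of the 10 named lost regions 9 and 6. This last requirement was chosen after seeing the data. Depth limits the classes, and most of all the lost and shared ones, because a region absent from a list of 1005 may lie below its threshold.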
